A study of Homo sapiens with 12 samples.

Results

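Ribosome assembly factors are the proteins that fold, cut and modify the precursor of ribosomal RNA and build it into the small (40S) and large (60S) ribosomal subunits, and that are absent from the finished ribosome. The 58 genes described here were matched by symbol to the 61906 genes of each of 2 count tables, and all 58 were found in both. They comprise 29 small-subunit factors, 18 large-subunit factors, 8 proteins of the small nucleolar ribonucleoproteins (snoRNPs) and 3 nucleolar chaperones. No measured value entered their choice, although it was made with results of these data known. The tables come from MOLM-14, a human acute myeloid leukemia cell line, and hold 12 RNA-seq libraries in 2 experiments with 3 libraries per group. In the knockdown experiment, cells were spinoculated with lentivirus carrying a control shRNA (shControl) or an shRNA against the RNA helicase DDX5 (shDDX5) and harvested at 96 hours. In the drug experiment, cells with no shRNA label received 0.1% DMSO or 100 nM of RX-5902, a compound known as a ligand of phosphorylated DDX5, for 6 hours. The labels name no further shRNA, no rescue of DDX5, no other dose and no other time. Effects of the shRNA or the compound other than those through DDX5 can therefore not be told apart from them.

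Ribosome assembly begins in the nucleolus, where RNA polymerase I transcribes the precursor RNA and snoRNPs guide its methylation and pseudouridylation. The UTP-A, UTP-B and Mpp10 complexes and the U3 snoRNP gather on the nascent precursor to form the small-subunit processome, which is later cleared by helicases and GTPases. Large-subunit precursors are shaped by the PeBoW complex and many other factors before both subunits are exported to the cytoplasm. Growing leukemia cells keep this pathway busy, and the transcription factor MYC is known to raise the transcription of many of its genes.

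The knockdown libraries held 17603589 to 19674098 counts each, and the drug libraries 20264250 to 20367575. DDX5 itself (chr17:64498254-64508199) stood at 755, 718 and 729.5 CPM in shControl and 159, 164 and 161 CPM in shDDX5 (log2 fold change -2.19, SE 0.08, edgeR adjusted p = 3.44e-06). With RX-5902 it moved the other way, by a log2 fold change of 0.31 (SE 0.04). Levels are in CPM, read counts scaled to a common library size with TMM factors. The library of shDDX5 replicate 1 stood apart: its chi-square per gene was 46.3 and 46.4 against the other shDDX5 libraries, while that of every other pair of replicates lay between 1.68 and 5.93. Counts of members called in the knockdown that change when it is left out are therefore given both ways. All 11 myeloid leukemia markers reached 1 CPM in the knockdown libraries and 10 of 11 in the drug libraries, where CD14 was under 0.1 CPM. Of these markers 5 rose and 5 fell with the knockdown, and their sum followed LYZ, at 3203 to 3581 CPM in shControl and 12364 to 13761 CPM in shDDX5. The other 10 summed to 1198 to 1242 CPM in shControl, 1142 to 1184 CPM in shDDX5, 1341 to 1344 CPM in DMSO and 1503 to 1529 CPM in RX-5902. Marker sums for B cells (at most 2.49 CPM), erythroid cells (at most 0.197 CPM) and fibroblasts (at most 7.19 CPM) were low in every library. The sum of 6 T cell markers, nearly all of it TRAC, was 16.3 to 25.6 CPM in the knockdown experiment, 20.5 to 21.9 CPM in DMSO and 50.7 to 53.4 CPM in RX-5902, while CD3D, CD3E, CD3G, CD2 and CD8A were under 0.1 CPM in both drug groups. The 6 epithelial and packaging cell markers summed to 9.96 to 11.2 CPM in shControl, 6.90 to 8.75 CPM in shDDX5, 4.21 to 4.90 CPM in DMSO and 18.0 to 20.5 CPM in RX-5902, where L1CAM carried the rise and EPCAM, KRT19 and CDH1 were under 0.1 CPM.

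Most ribosome assembly genes fell in both experiments. With RX-5902, 57 of the 58 fell within 6 hours and none rose, taking an edgeR adjusted p under 0.05 as a call. Of the 13941 genes that entered this test, 31.9% fell and 32.2% rose. With the knockdown, 45 of the 58 fell, 2 rose (NOP10 and NOB1) and 11 did not pass the test, whereas 28.3% of 14463 tested genes fell and 28.4% rose. The same 45 fell in both experiments, compared with 12.8% of the 13233 genes tested in both. The median log2 fold change of the 58 was -0.83 with RX-5902 and -0.65 with the knockdown, against 0.012 and -0.001 over all genes tested.

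The falls were of moderate size. At least 2-fold falls were called for 18 members with RX-5902, where 3.57% of tested genes fell that far, and for 17 members with the knockdown, where 10.3% did. Without shDDX5 replicate 1 the latter count was also 17, where 1517 of 14916 genes fell that far. The log2 changes spanned -1.87 to 0.41 with RX-5902 and -1.91 to 0.66 with the knockdown, and the middle of the distribution was narrower with the compound (quartiles -1.07 and -0.61) than with the knockdown (-1.07 and -0.35). The standard errors were smaller with the compound too, at a median of 0.04 against 0.10 on the log2 scale. The 3 libraries of one group lay wholly apart from those of the other for 57 members with RX-5902, against 67.4% of tested genes. With the knockdown they did for 51 members, against 66.1%, and for 55 without shDDX5 replicate 1, against 79.9%. Summed over the 58 genes, the level was 9679 to 9930 CPM in the shControl libraries and 5772 to 6279 CPM in the shDDX5 libraries. It was 12411 to 12605 CPM in the DMSO libraries and 7357 to 7517 CPM in the RX-5902 libraries. In both experiments the libraries of a group lay close together and the groups did not overlap. These are shares of each library's RNA, so a smaller amount of these RNAs per cell cannot be told apart from fewer cells that carry them or from a rise of other RNAs. Beside these falls, 10 of the 11 leukemia markers were called in the knockdown, 5 higher and 5 lower. LYZ rose (log2 fold change 1.92), while MEIS1, HOXA9 and CD14 fell (-2.73, -1.62 and -1.55). CD3D and L1CAM also fell in the knockdown (-2.54 and -2.11), and TRAC and L1CAM rose with RX-5902 (1.29 and 2.27). COL1A1, at most 5.83 CPM, rose in both experiments (3.03 in the knockdown and 1.93 with RX-5902). The part of these changes in the result was not tested.

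**Figure D1:**
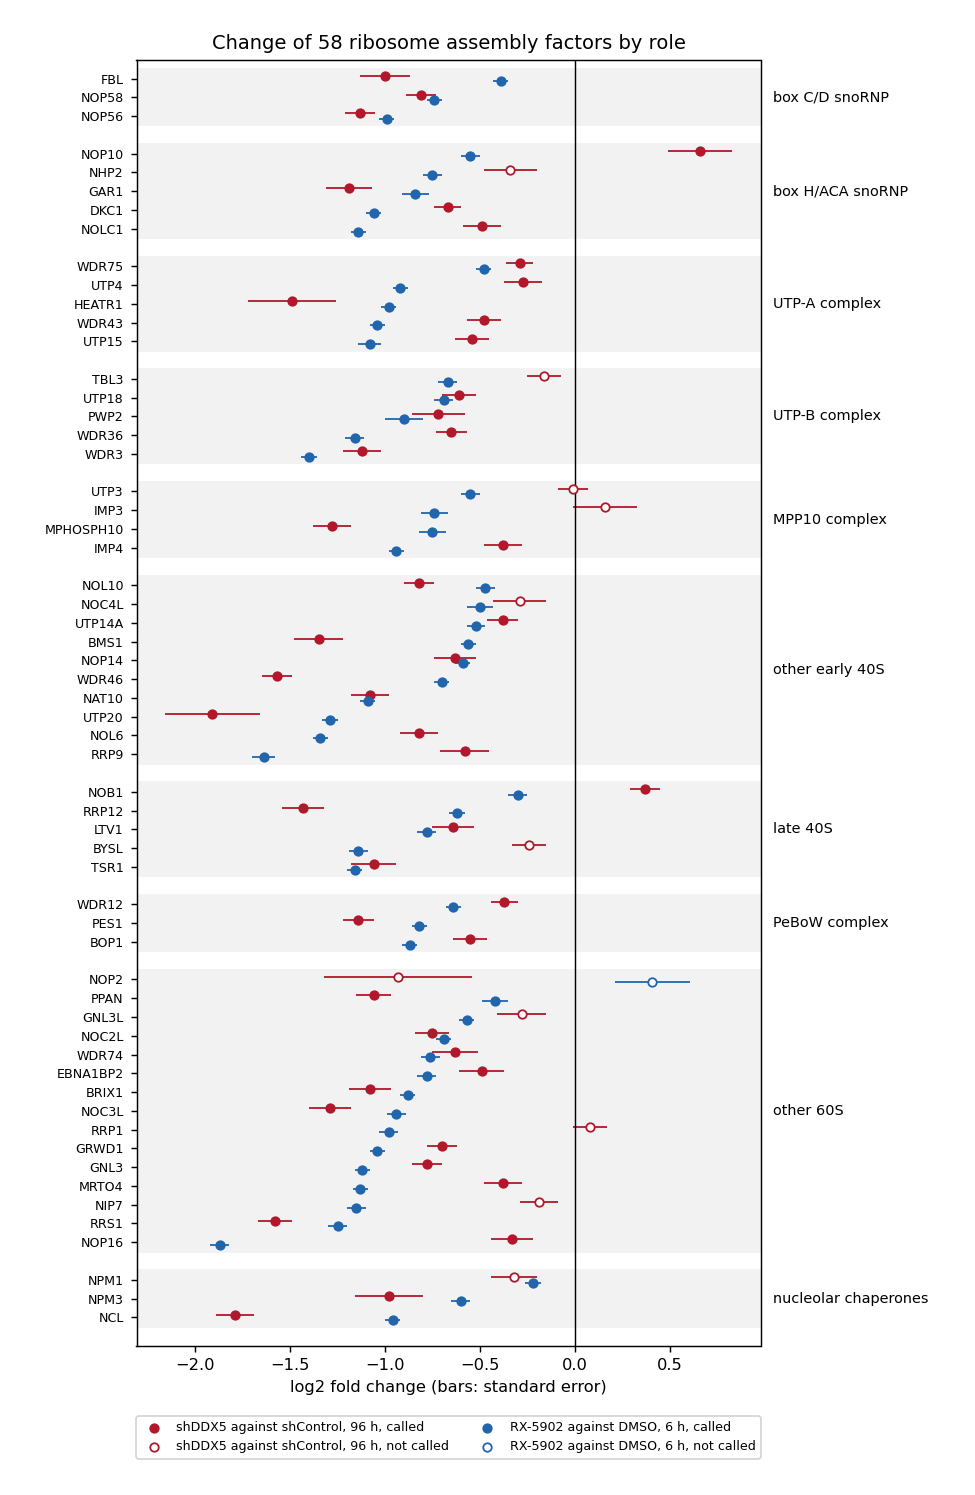
Log2 fold change of each of the 58 ribosome assembly genes (rows, grouped by role) with the DDX5 knockdown and with RX-5902, with bars of 1 standard error from edgeR, filled where called; 3 libraries per group. Nearly all points lie left of 0: 45 genes fell with the knockdown and 57 with RX-5902, while NOP10 and NOB1 rose with the knockdown.

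Since the members fell together, their promoters were searched for 3 short motifs in the RefSeq windows of 250 bases before to 50 bases after the gene start (GRCh38.p14). Windows were found for 51 of the 58; NOP58, NOLC1, MPHOSPH10, NOL10, RRP12, BOP1 and RRS1 had no entry. The E-box CACGTG, the core letters bound by MYC with MAX and by other factors of that family, reads the same on both strands. It stood in 21 of 51 member promoters (41.2%), compared with 7.43% of all 27305 windows and 10.6% of the 9563 windows of genes tested in both experiments. Within 50 bases of the start it stood in 19 members (37.3%), against 4.28% of tested genes. The following windows show it in members whose levels are described, with the E-box in capitals, so that its place and flanks can be compared.
RRP9, GRCh38.p14 chr3:51941892-51941921, minus strand: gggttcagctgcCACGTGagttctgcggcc
UTP20, GRCh38.p14 chr12:101280083-101280112, plus strand: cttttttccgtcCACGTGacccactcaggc
NOP10, GRCh38.p14 chr15:34343130-34343159, minus strand: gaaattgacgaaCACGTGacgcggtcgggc
NOL6, GRCh38.p14 chr9:33473894-33473923, minus strand: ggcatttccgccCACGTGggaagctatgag
PES1, GRCh38.p14 chr22:30591880-30591909, minus strand: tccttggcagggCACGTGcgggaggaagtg
NOC3L, GRCh38.p14 chr10:94362903-94362932, minus strand: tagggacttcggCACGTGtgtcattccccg
BYSL, GRCh38.p14 chr6:41921515-41921544, plus strand: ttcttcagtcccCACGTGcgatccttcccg
IMP4, GRCh38.p14 chr2:130342900-130342929, plus strand: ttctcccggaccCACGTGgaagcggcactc

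These E-boxes begin 5, 10 and 11 bases before the start in RRP9, UTP20 and NOP10, and at 13, 13, 19, 28 and 15 bases after it in NOL6, PES1, NOC3L, BYSL and IMP4. The set includes RRP9, which fell by 1.64 with RX-5902, and NOP10, which rose by 0.66 in the knockdown. The flanking bases differ from gene to gene. The median change of members with the E-box was -0.63 in the knockdown and -0.90 with RX-5902 (21 genes), and that of members without it -0.64 and -0.80 (30 genes). WDR46 holds the E-box too, whereas NOP16 and NCL, which changed far in 1 or both experiments, had no CACGTG in their windows. The ETS-type motif CCGGAAG, searched on both strands, stood in 21 of 51 members (41.2%), in 10.7% of all windows and in 20.7% of those of tested genes. A longer palindrome centred on CGCG, also searched, stood in 1 member (1.96%), in 0.469% of all windows and in 1.00% of tested genes. The E-box and CCGGAAG were both present in 9 members and both absent in 18. These are matches of letters only, sequence outside the windows was not searched, and no binding was measured. The part of any motif in the changes was not tested.

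**Figure D2:**
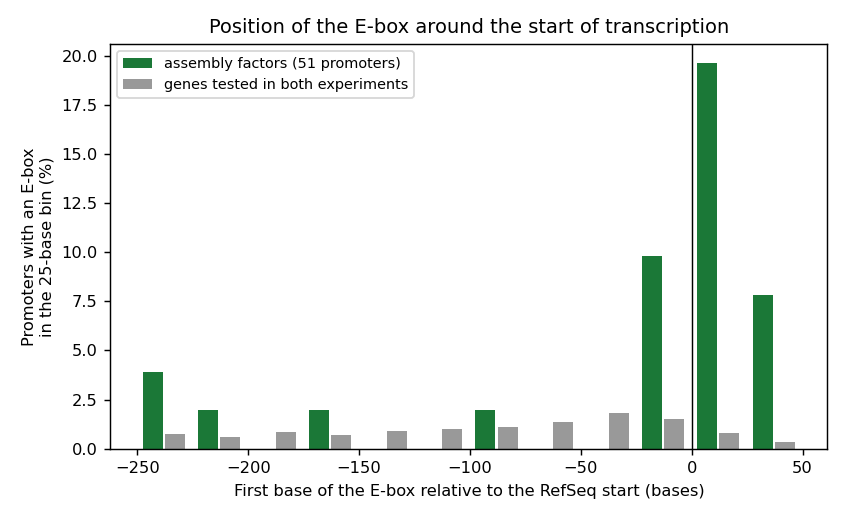
Share of promoters (percent, y axis) with CACGTG beginning in each 25-base bin from 250 bases before to 50 bases after the gene start (x axis), for 51 ribosome assembly genes and 9563 genes tested in both experiments. In members the share is highest from 0 to 25 bases after the start, at 19.6% against 0.826% of tested genes.

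Box C/D snoRNPs carry the ribose methylation of ribosomal RNA, and all 3 of their core proteins among the members fell in both experiments. NOP56 (chr20:2652593-2658393, a scaffold of the particle) stood at 309, 307 and 336 CPM in shControl and 141, 148 and 146 CPM in shDDX5 (log2 fold change -1.13, SE 0.08, edgeR adjusted p = 1.62e-05). It stood at 401, 415 and 405 CPM in DMSO and 206, 206 and 202 CPM in RX-5902 (log2 fold change -0.99, SE 0.04, edgeR adjusted p = 2.78e-21). The difference between these falls did not pass the test, at -0.16 (SE 0.08, edgeR adjusted p = 0.122). NOP58 (chr2:202265736-202303661), the paralog that pairs with NOP56 in each particle, stood at 145, 132 and 144 CPM in shControl and 83.0, 78.5 and 78.6 CPM in shDDX5 (log2 fold change -0.81, SE 0.08, edgeR adjusted p = 7.87e-05). In the drug experiment NOP58 stood at 169, 172 and 186 CPM in DMSO and 110.2, 105 and 99.2 CPM in RX-5902 (log2 fold change -0.74, SE 0.04, edgeR adjusted p = 5.24e-16). The paralogs thus fell together, NOP56 somewhat further than NOP58 in each experiment. FBL, the methyltransferase fibrillarin, fell by 1.00 (SE 0.13, edgeR adjusted p = 0.000378) with the knockdown and by 0.39 (SE 0.04, edgeR adjusted p = 1.04e-10) with RX-5902. This larger fall of FBL with the knockdown passed the test of the difference (difference -0.62, SE 0.15, edgeR adjusted p = 0.00336).

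Box H/ACA snoRNPs carry out pseudouridylation, and their members split in the knockdown. Of 5 genes, counting the chaperone NOLC1, 3 fell and 1 rose with the knockdown (4 and 1 without shDDX5 replicate 1), and all 5 fell with RX-5902. GAR1 (chr4:109815510-109824740, a core protein) stood at 53.1, 44.7 and 44.5 CPM in shControl and 23.2, 20.6 and 18.6 CPM in shDDX5 (log2 fold change -1.19, SE 0.12, edgeR adjusted p = 7.33e-05), and with RX-5902 it fell by 0.84 (SE 0.07, edgeR adjusted p = 3.88e-13). DKC1 (chrX:154762742-154777689), the pseudouridine synthase dyskerin, stood at 211, 209.6 and 217 CPM in shControl and 134, 134 and 134 CPM in shDDX5 (log2 fold change -0.67, SE 0.07, edgeR adjusted p = 0.00013) and fell further with RX-5902, by 1.06 (SE 0.04, edgeR adjusted p = 9.77e-22). NOP10 (chr15:34339159-34343180), a small core protein that binds dyskerin, was the exception. It stood at 140.3, 154 and 157 CPM in shControl and 313, 197 and 204 CPM in shDDX5 (log2 fold change 0.66, SE 0.17, edgeR adjusted p = 0.0122), with the highest value in shDDX5 replicate 1. Without that library the rise of NOP10 was 0.41 (SE 0.05, edgeR adjusted p = 1.17e-08). The rise was 0.60 and was not called when shControl replicate 1 was left out (edgeR adjusted p = 0.0635). With RX-5902, NOP10 stood at 96.1, 89.4 and 85.8 CPM in DMSO and 57.8, 61.2 and 66.5 CPM in RX-5902 (log2 fold change -0.55, SE 0.05, edgeR adjusted p = 2.57e-11), so its levels lay above the controls in all 3 shDDX5 libraries and below them in all 3 RX-5902 libraries. NHP2, the remaining core protein, fell with RX-5902 (-0.75) and did not pass the test in the knockdown (-0.34, edgeR adjusted p = 0.0705). NOLC1 (chr10:102152176-102163871), which binds snoRNPs of both kinds, stood at 503, 516 and 523 CPM in DMSO and 242, 228 and 232 CPM in RX-5902 (log2 fold change -1.14, SE 0.04, edgeR adjusted p = 1.49e-22). In the knockdown NOLC1 stood at 476, 467 and 470.3 CPM in shControl and 299, 363 and 348 CPM in shDDX5 (log2 fold change -0.49, SE 0.10, edgeR adjusted p = 0.00281), a smaller fall, and the difference was 0.63 (SE 0.10, edgeR adjusted p = 7.48e-05).

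The UTP-A complex is an early binder of the nascent precursor that links it to its transcription. All 5 of its genes among the members fell in each experiment, with a median of -0.48 in the knockdown and -0.98 with RX-5902. HEATR1 (chr1:236549005-236604516), a very large repeat protein, stood at 221, 217 and 221 CPM in shControl and 48.2, 94.8 and 91.6 CPM in shDDX5 (log2 fold change -1.49, SE 0.23, edgeR adjusted p = 0.000758). Its lowest value was in shDDX5 replicate 1, without which the change was -1.24. With RX-5902 HEATR1 fell by 0.98 (SE 0.04, edgeR adjusted p = 5.52e-21). UTP15 (chr5:73565443-73583380), a beta-propeller subunit, stood at 37.6, 33.2 and 32.0 CPM in shControl and 23.4, 23.3 and 24.0 CPM in shDDX5 (log2 fold change -0.54, SE 0.09, edgeR adjusted p = 0.00125), and with RX-5902 it fell by 1.08 (SE 0.06, edgeR adjusted p = 1.12e-16). The other subunits WDR43, UTP4 and WDR75 changed by -0.48, -0.27 and -0.29 in the knockdown. Their changes with RX-5902 were -1.04, -0.92 and -0.48. For WDR43, UTP4 and UTP15 the fall with RX-5902 was larger by the test of the difference.

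UTP-B binds the U3 snoRNA and the start of the precursor. Of its 5 genes among the members, 4 were lower in the knockdown (median -0.65) and 5 with RX-5902 (median -0.90). WDR3 (chr1:117929720-117966543) stood at 121, 111 and 112 CPM in shControl and 47.3, 57.7 and 53.4 CPM in shDDX5 (log2 fold change -1.12, SE 0.10, edgeR adjusted p = 3.95e-05). With RX-5902 WDR3 stood at 175, 169 and 163 CPM in DMSO and 66.9, 64.4 and 60.7 CPM in RX-5902 (log2 fold change -1.40, SE 0.04, edgeR adjusted p = 2.4e-23), the furthest fall of the complex in each experiment. WDR36 (chr5:111092321-111130502) stood at 111, 102 and 108 CPM in shControl and 63.7, 68.4 and 71.9 CPM in shDDX5 (log2 fold change -0.65, SE 0.08, edgeR adjusted p = 0.000308) and fell by 1.16 (SE 0.05, edgeR adjusted p = 1.42e-20) with RX-5902. PWP2 and UTP18 fell in both experiments, by 0.72 and 0.61 in the knockdown and by 0.90 and 0.69 with RX-5902. TBL3 was the 1 of these 5 that did not pass the test in the knockdown (-0.16, edgeR adjusted p = 0.167). UTP6, a UTP-B subunit outside the 58, rose in the knockdown (0.35, SE 0.09, edgeR adjusted p = 0.00853). With RX-5902 UTP6 fell (-0.34, SE 0.04, edgeR adjusted p = 9.17e-09).

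The Mpp10 group, which helps U3 pair with the precursor, was uneven in the knockdown. MPHOSPH10 (chr2:71130310-71150101), the scaffold, stood at 62.8, 58.6 and 60.5 CPM in shControl and 25.7, 26.9 and 22.3 CPM in shDDX5 (log2 fold change -1.28, SE 0.10, edgeR adjusted p = 1.94e-05), and with RX-5902 it fell by 0.75 (SE 0.07, edgeR adjusted p = 6.01e-12). IMP4 (chr2:130342877-130347967), an RNA-binding partner, stood at 113, 116 and 120.2 CPM in shControl and 102, 80.6 and 85.2 CPM in shDDX5 (log2 fold change -0.38, SE 0.10, edgeR adjusted p = 0.0143) and fell by 0.94 (SE 0.04, edgeR adjusted p = 1.68e-19) with RX-5902. The fall of IMP4 in the knockdown was not called without shControl replicate 2 or 3 or shDDX5 replicate 2 or 3 (edgeR adjusted p = 0.0507 to 0.0631). IMP3 and UTP3 did not pass the test in the knockdown (0.16 and -0.01, edgeR adjusted p = 0.452 and 0.944), and both fell with RX-5902 (-0.74 and -0.55). The scaffold was thus the member that fell further in the knockdown, with a difference of -0.54 (edgeR adjusted p = 0.00417), whereas IMP3, IMP4 and UTP3 fell further with RX-5902, with differences of 0.88, 0.55 and 0.52.

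Among the 10 other early small-subunit factors, 9 fell in the knockdown (median -0.82; 10 fell without shDDX5 replicate 1) and 10 with RX-5902 (median -0.64). UTP20 (chr12:101280105-101386618), a long repeat protein of the processome, had the furthest fall of the 58 members in the knockdown with all libraries. It stood at 120.2, 126 and 123 CPM in shControl and 19.3, 35.8 and 43.0 CPM in shDDX5 (log2 fold change -1.91, SE 0.25, edgeR adjusted p = 0.000318), and its lowest value was again in shDDX5 replicate 1. Without that library the UTP20 change was -1.64, and NCL then had the furthest fall (-1.73). In the drug experiment UTP20 stood at 231, 231 and 244 CPM in DMSO and 100.2, 95.0 and 93.2 CPM in RX-5902 (log2 fold change -1.29, SE 0.04, edgeR adjusted p = 3.58e-23). WDR46 (chr6:33279108-33289247), a scaffold of the early particle, stood at 123, 129 and 131 CPM in shControl and 43.6, 44.4 and 40.8 CPM in shDDX5 (log2 fold change -1.57, SE 0.08, edgeR adjusted p = 4.52e-06). With RX-5902 WDR46 stood at 146, 161 and 157 CPM in DMSO and 93.7, 97.8 and 95.1 CPM in RX-5902 (log2 fold change -0.70, SE 0.04, edgeR adjusted p = 7.66e-16). Its fall in the knockdown exceeded that with the compound, with a difference of -0.89 (SE 0.09, edgeR adjusted p = 1.64e-06). BMS1 (chr10:42782795-42834937), a GTPase needed for the processome to mature, stood at 213, 213 and 228 CPM in shControl and 69.4, 94.3 and 92.7 CPM in shDDX5 (log2 fold change -1.35, SE 0.13, edgeR adjusted p = 5.66e-05), and with RX-5902 it fell by 0.56 (SE 0.04, edgeR adjusted p = 9.26e-15).

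RRP9 and NOL6 showed the reverse order. RRP9 (chr3:51933429-51941904), a protein of the U3 snoRNP, stood at 61.6, 61.8 and 59.3 CPM in DMSO and 19.9, 19.5 and 19.2 CPM in RX-5902 (log2 fold change -1.64, SE 0.06, edgeR adjusted p = 2.06e-22). In the knockdown RRP9 stood at 51.7, 53.7 and 54.0 CPM in shControl and 42.5, 30.1 and 33.9 CPM in shDDX5 (log2 fold change -0.58, SE 0.13, edgeR adjusted p = 0.00463), and the difference was 1.04 (SE 0.15, edgeR adjusted p = 3.76e-05). NOL6 (chr9:33461353-33473930), which sits in the processome, stood at 213, 206 and 197 CPM in DMSO and 78.7, 81.0 and 83.6 CPM in RX-5902 (log2 fold change -1.34, SE 0.04, edgeR adjusted p = 2.44e-23) and at 151, 156 and 158 CPM in shControl and 76.1, 90.8 and 96.3 CPM in shDDX5 (log2 fold change -0.82, SE 0.10, edgeR adjusted p = 0.000256). NAT10, the acetyltransferase of small-subunit RNA, changed by close values in both (-1.08 and -1.09, difference -0.01, SE 0.10). NOL10, UTP14A and NOP14 fell by 0.82, 0.38 and 0.63 in the knockdown. With RX-5902 their log2 changes were -0.47, -0.52 and -0.59. NOC4L fell with RX-5902 (-0.50) and did not pass the test in the knockdown (-0.29, edgeR adjusted p = 0.114).

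The late small-subunit factors act on the particle as it leaves the nucleolus and matures in the cytoplasm. Of these 5, 3 fell and 1 rose with the knockdown (4 and 1 without shDDX5 replicate 1), and 5 fell with RX-5902. RRP12 (chr10:97356358-97426076), an export factor, stood at 206, 220.0 and 216 CPM in shControl and 67.6, 82.9 and 87.5 CPM in shDDX5 (log2 fold change -1.43, SE 0.11, edgeR adjusted p = 2.23e-05), and with RX-5902 it fell by 0.62 (SE 0.04, edgeR adjusted p = 8.91e-16). TSR1 (chr17:2322396-2336657), a GTPase-like protein that holds the late particle inactive, stood at 130.3, 129 and 133 CPM in shControl and 51.4, 67.1 and 69.9 CPM in shDDX5 (log2 fold change -1.06, SE 0.12, edgeR adjusted p = 0.000158) and fell by 1.16 (SE 0.04, edgeR adjusted p = 4.33e-21) with RX-5902. NOB1 (chr16:69741871-69754926), the nuclease that makes the final cut of small-subunit RNA, rose in the knockdown: it stood at 64.0, 65.1 and 70.5 CPM in shControl and 84.7, 87.1 and 86.6 CPM in shDDX5 (log2 fold change 0.37, SE 0.08, edgeR adjusted p = 0.00389). With RX-5902 NOB1 stood at 82.6, 79.4 and 75.9 CPM in DMSO and 62.4, 65.0 and 66.3 CPM in RX-5902 (log2 fold change -0.30, SE 0.05, edgeR adjusted p = 1.25e-06). All 3 shDDX5 libraries lay above all 3 shControl libraries, and without replicate 1 the rise of NOB1 was 0.38. When the trend of fold change with gene length was removed, the rise of NOB1 was 0.21 and no longer passed the test (edgeR adjusted p = 0.0692). BYSL (chr6:41921499-41933046), an early-acting factor that stays to a late step, stood at 69.4, 71.2 and 73.2 CPM in shControl and 65.3, 53.9 and 62.1 CPM in shDDX5 (log2 fold change -0.24, SE 0.09, edgeR adjusted p = 0.0566), which did not pass the test (without shDDX5 replicate 1, -0.30 and edgeR adjusted p = 4.49e-05). With RX-5902 BYSL stood at 96.9, 93.1 and 93.7 CPM in DMSO and 41.0, 41.8 and 45.7 CPM in RX-5902 (log2 fold change -1.14, SE 0.05, edgeR adjusted p = 5.81e-20), more than a 2-fold fall. In the knockdown BYSL also passed with the length trend removed (-0.43, edgeR adjusted p = 0.00103) and in a fit of all 12 libraries (-0.22, edgeR adjusted p = 0.0248). LTV1, an export adaptor, fell by 0.64 in the knockdown and by 0.78 with RX-5902.

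**Figure D3:**
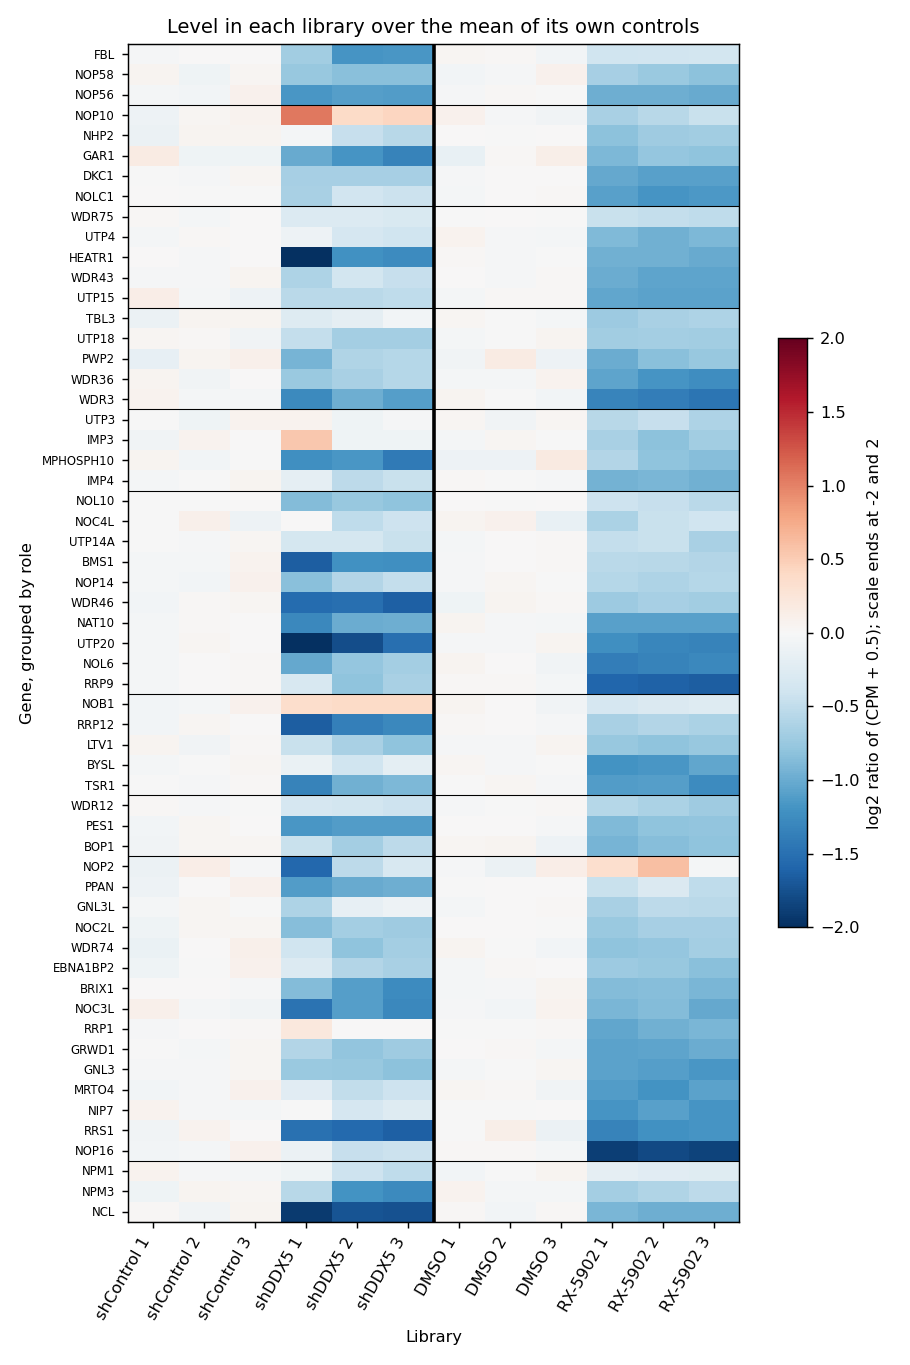
Level of each of the 58 ribosome assembly genes (rows, grouped by role) in each of the 12 libraries (columns), as the log2 ratio of CPM plus 0.5 to the mean of its own control group; blue is lower and red higher, and the colour scale ends at -2 and 2. The RX-5902 columns are blue for every gene but NOP2, while the shDDX5 columns are red for NOP10 and NOB1 and vary between replicate 1 and the others for HEATR1, UTP20 and IMP3.

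PeBoW, the complex that processes the large-subunit precursor, fell in all 3 subunits in both experiments (median -0.55 and -0.82). PES1 (chr22:30576625-30607083), its pescadillo subunit, stood at 212, 228 and 223 CPM in shControl and 98.8, 101 and 101 CPM in shDDX5 (log2 fold change -1.14, SE 0.08, edgeR adjusted p = 1.29e-05), and with RX-5902 it fell by 0.82 (SE 0.04, edgeR adjusted p = 1.22e-18). BOP1 (chr8:144262045-144291438), which holds the complex together, stood at 216, 233 and 234 CPM in shControl and 167, 141 and 159 CPM in shDDX5 (log2 fold change -0.55, SE 0.09, edgeR adjusted p = 0.00125) and fell by 0.87 (SE 0.04, edgeR adjusted p = 3.73e-18) with RX-5902. WDR12 changed by -0.37 and -0.64. PES1 fell further with the knockdown (difference -0.33, edgeR adjusted p = 0.00345), whereas BOP1 and WDR12 had differences of 0.30 and 0.25, the larger fall being with RX-5902.

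The other 15 large-subunit factors held the furthest fall with RX-5902 and 4 of the 11 members that did not pass the test in the knockdown. In all, 11 fell and 4 did not pass the test in the knockdown (median -0.70; 14 fell without shDDX5 replicate 1), and 14 fell with RX-5902 (median -0.94). NOP16 (chr5:176383946-176388927), a nucleolar protein of the early large-subunit particle, stood at 85.3, 85.1 and 81.4 CPM in DMSO and 22.4, 23.7 and 22.9 CPM in RX-5902 (log2 fold change -1.87, SE 0.05, edgeR adjusted p = 9.38e-25), the furthest fall of the 58. In the knockdown NOP16 stood at 55.3, 55.8 and 60.7 CPM in shControl and 52.5, 41.7 and 42.6 CPM in shDDX5 (log2 fold change -0.33, SE 0.11, edgeR adjusted p = 0.0302), a smaller one, which was not called with 1 library left out for any library but shDDX5 replicate 1 (edgeR adjusted p = 0.066 to 0.117). The difference of 1.52 (SE 0.13, edgeR adjusted p = 2.62e-07) was the largest between the experiments among the members. RRP1 (chr21:43789513-43805293), an early processing factor, stood at 67.2, 68.6 and 69.6 CPM in shControl and 79.1, 68.7 and 69.0 CPM in shDDX5 (log2 fold change 0.08, SE 0.09, edgeR adjusted p = 0.466) and at 74.2, 74.4 and 75.8 CPM in DMSO and 36.0, 38.0 and 39.6 CPM in RX-5902 (log2 fold change -0.98, SE 0.05, edgeR adjusted p = 5.81e-18). NIP7 (chr16:69337996-69343106), which binds the precursor RNA, stood at 96.7, 89.9 and 88.9 CPM in shControl and 91.7, 73.1 and 76.9 CPM in shDDX5 (log2 fold change -0.19, SE 0.10, edgeR adjusted p = 0.149) and at 82.7, 83.0 and 84.0 CPM in DMSO and 36.6, 39.2 and 36.5 CPM in RX-5902 (log2 fold change -1.15, SE 0.05, edgeR adjusted p = 4.49e-20). RRP1 and NIP7 thus fell with the compound while their groups overlapped in the knockdown. Without shDDX5 replicate 1, NIP7 passed the test there too (-0.29, edgeR adjusted p = 1.25e-05).

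RRS1 and NOC3L fell far in both. RRS1 (chr8:66429014-66430733), which recruits the 5S RNA particle, stood at 59.0, 64.9 and 62.0 CPM in shControl and 21.8, 20.7 and 19.6 CPM in shDDX5 (log2 fold change -1.58, SE 0.09, edgeR adjusted p = 5.49e-06), and with RX-5902 it fell by 1.25 (SE 0.05, edgeR adjusted p = 8.83e-20). NOC3L (chr10:94333226-94362959), a partner in pre-60S transport, stood at 93.3, 84.1 and 83.0 CPM in shControl and 31.0, 39.96 and 35.3 CPM in shDDX5 (log2 fold change -1.29, SE 0.11, edgeR adjusted p = 3.77e-05) and fell by 0.94 (SE 0.05, edgeR adjusted p = 8.79e-18) with RX-5902. GNL3 and GNL3L are paralogous GTPases of the nucleolus and nucleus. GNL3 (nucleostemin, chr3:52681156-52694497) stood at 203, 203 and 212 CPM in shControl and 123, 122 and 116 CPM in shDDX5 (log2 fold change -0.78, SE 0.08, edgeR adjusted p = 7.29e-05) and at 219.8, 223 and 232 CPM in DMSO and 107, 104 and 100.0 CPM in RX-5902 (log2 fold change -1.12, SE 0.04, edgeR adjusted p = 1.08e-21). GNL3L (chrX:54530183-54621521) stood at 85.8, 90.2 and 87.9 CPM in shControl and 57.1, 78.5 and 81.6 CPM in shDDX5 (log2 fold change -0.28, SE 0.13, edgeR adjusted p = 0.104) and at 99.5, 102 and 104 CPM in DMSO and 64.8, 70.6 and 69.8 CPM in RX-5902 (log2 fold change -0.57, SE 0.04, edgeR adjusted p = 3.66e-13). GNL3 therefore fell in both experiments, while GNL3L passed the test with RX-5902 and, in the knockdown, only without shDDX5 replicate 1 among the libraries left out (-0.14, edgeR adjusted p = 0.017). The difference between the paralogs was not itself tested.

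The remaining large-subunit factors GRWD1, EBNA1BP2, BRIX1, PPAN, MRTO4, NOC2L and WDR74 fell in both experiments. Their log2 changes ran from -1.08 (BRIX1) to -0.38 (MRTO4) in the knockdown and from -1.13 (MRTO4) to -0.42 (PPAN) with RX-5902. MRTO4, an early placeholder for a ribosomal stalk protein, fell further with RX-5902 (difference 0.74, edgeR adjusted p = 9.73e-05), and PPAN further with the knockdown (difference -0.66, edgeR adjusted p = 0.000166). NOP2, a methyltransferase of large-subunit RNA, was the 1 member that did not fall with RX-5902 (0.41, SE 0.20, edgeR adjusted p = 0.0799). Its level was only 1.94, 2.42 and 2.12 CPM in shControl and 1.67, 1.52 and 1.91 CPM in DMSO. The deposited exons of NOP2 share 54.4% of their bases with ENSG00000285238 on the same strand. That gene itself carried 0 to 3 reads per library. How reads in the shared bases were handled was not given in the sources used here, so the values of NOP2 are uncertain.

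NCL and NPM1 were the most abundant members, and the 3 nucleolar chaperones moved unevenly. NCL (chr2:231453531-231483641), nucleolin, which binds precursor RNA and ribosomal DNA, stood at 1407, 1317 and 1445 CPM in shControl and 368, 421 and 416 CPM in shDDX5 (log2 fold change -1.79, SE 0.10, edgeR adjusted p = 5.48e-06). With RX-5902 NCL stood at 2301, 2161 and 2302 CPM in DMSO and 1199, 1140.3 and 1142 CPM in RX-5902 (log2 fold change -0.96, SE 0.04, edgeR adjusted p = 2.11e-20), and the fall in the knockdown was the larger (difference -0.85, SE 0.10, edgeR adjusted p = 5.74e-06). NPM3 (chr10:101781325-101783446), a nucleoplasmin family protein, stood at 79.6, 87.2 and 86.4 CPM in shControl and 57.4, 36.5 and 34.7 CPM in shDDX5 (log2 fold change -0.98, SE 0.18, edgeR adjusted p = 0.00216) and at 119, 111 and 111 CPM in DMSO and 70.7, 74.9 and 79.0 CPM in RX-5902 (log2 fold change -0.60, SE 0.05, edgeR adjusted p = 2.5e-13). NPM1 (chr5:171387116-171411810), its abundant paralog and a gene often mutated in acute myeloid leukemia, stood at 1914, 1799 and 1781 CPM in shControl and 1731, 1375 and 1291 CPM in shDDX5 (log2 fold change -0.32, SE 0.12, edgeR adjusted p = 0.0562) and at 2103, 2162 and 2259 CPM in DMSO and 1917, 1852 and 1832 CPM in RX-5902 (log2 fold change -0.22, SE 0.04, edgeR adjusted p = 7.77e-06). Without shDDX5 replicate 1 the knockdown change of NPM1 was -0.46 (edgeR adjusted p = 8.44e-10). NPM1 had the smallest fall of the 57 called with RX-5902. Together NCL and NPM1 took 32.8% of the members' summed CPM in shControl and 35.4% in DMSO. Per kilobase of exon, the levels of NPM1, NCL, FBL and NOLC1 led the members, at 220.3, 156, 152 and 119 CPM per kb in shControl. In DMSO the same genes stood at 262, 253, 152 and 129.5 CPM per kb. The median member stood at 95.9 CPM in shControl and 119 CPM in DMSO, and 51 of 58 reached 50 CPM in each.

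The knockdown and the compound did not lower the members in the same order. A model of all 12 libraries tested the knockdown change minus the RX-5902 change, with time after treatment, lentivirus and agent differing along with it. The difference passed the test for 38 of 58 members. It was positive, meaning a smaller fall or a rise in the knockdown, for 24 members, against 24.1% of the 15386 genes tested, and negative for 14 members, against 28.6%. Of the 24, 16 fell in both experiments, 6 did not pass the test in the knockdown (TBL3, IMP3, UTP3, BYSL, RRP1 and NIP7) and 2 rose there. Of the 14, 13 fell in both and the remaining gene was the low-count NOP2. The smallest p-values of the difference belonged to NOP16, RRP1, NIP7 and BYSL on the positive side and to WDR46 and NCL on the negative side. By point estimate, 36 members had the lower log2 fold change with RX-5902 and 22 with the knockdown. Over the 58 genes the changes correlated weakly (Pearson r = 0.15, Spearman rho = 0.18), close to the values over the 13233 genes tested in both (0.12 and 0.13). Genes are not independent replicates, and this is a description.

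**Figure D4:**
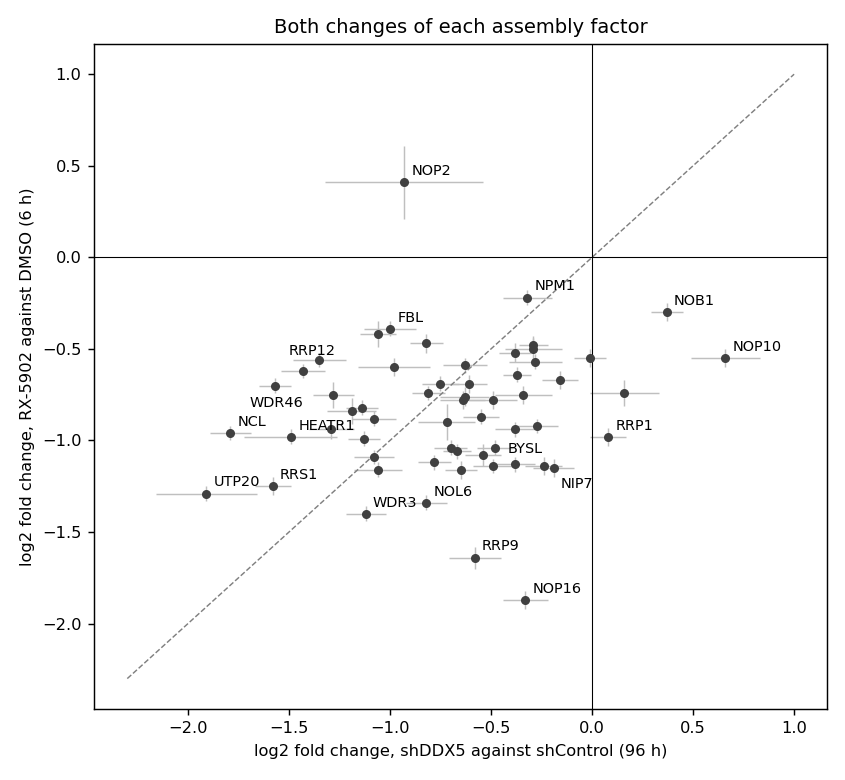
Log2 fold change with the knockdown (x axis) against that with RX-5902 (y axis) for the 58 ribosome assembly genes, with bars of 1 standard error; the dashed line marks equal changes. NOP16, RRP1, NIP7 and BYSL lie low on the y axis with small changes on the x axis, and WDR46 and NCL lie far to the left.

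Gene length moved with the result in 1 library. On a log2 scale of CPM plus 0.5, the members in shDDX5 replicate 1 differed from the mean of replicates 2 and 3 by -1.14 to 0.68 with a median of 0.05. Over all genes tested the median was 0.0. The library lay below both others in 24 members and above both in 29. This library also stood apart over all genes (chi-square per gene 46.3 and 46.4), for which the same counts were not made. Its shift had a Spearman rho of -0.64 with exon length over the 58 genes and -0.40 over all genes tested. The long members HEATR1 and UTP20 were low there and the short NOP10 high. Not every member followed the trend: NOL10, the longest, shifted by -0.083 and the long NPM1 by 0.377. The lowest shift was that of the low-count NOP2. The fold change itself had a rho with length of -0.26 in the knockdown, -0.14 without this library, and -0.09 with RX-5902. Its share of mitochondrially encoded counts was also the highest of the 12, at 10.3%, where the lowest was 5.19%. Without the library, 52 members fell and 2 rose at a median of -0.68, while 35.7% of 14916 tested genes fell and 35.7% rose. None of the 45 falls was lost, and NHP2, NOC4L, BYSL, NOP2, GNL3L, NIP7 and NPM1 were added. The difference was then called positive for 28 members and negative for 18, against 28.4% and 32.0% of 15794 genes. The cause of the shift was not tested.

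**Figure D5:**
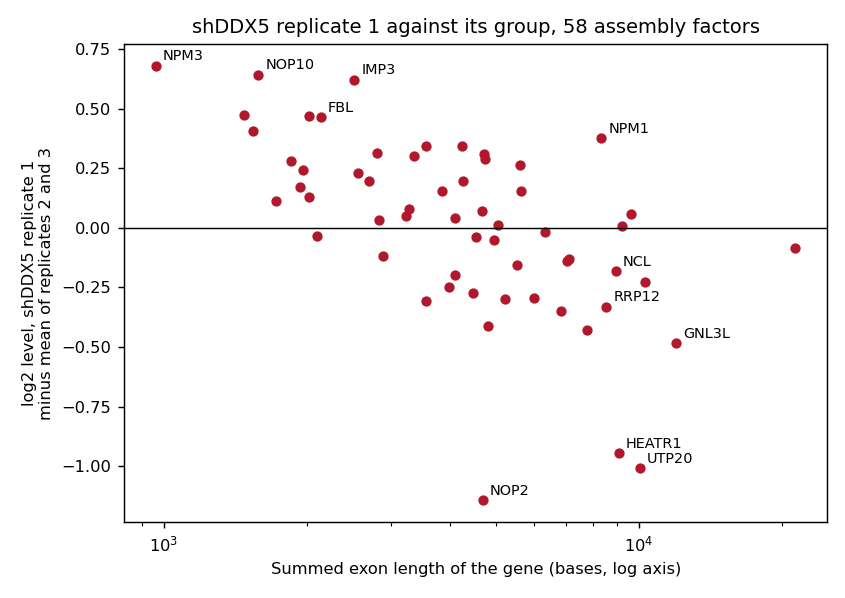
Shift of shDDX5 replicate 1 from the mean of shDDX5 replicates 2 and 3 (log2 of CPM plus 0.5, y axis) against summed exon length in bases (log x axis) for the 58 ribosome assembly genes. The long genes UTP20 and HEATR1 lie below 0 and the short NOP10 above it, with a Spearman rho of -0.64 over the 58.

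Reads shared with other genes limit some members. In the deposited exon coordinates, 32 members overlap an exon of another gene, and IMP3 and NOP2 share over 50% of their exon bases. On the same strand, NOP2 (54.4%), PPAN (49.2%) and LTV1 (34.7%) share the most. Partners on the opposite strand cover 58.1% of IMP3, 30.0% of TBL3, 28.0% of NHP2, 26.9% of TSR1, 20.7% of NOP14 and 20.4% of NOB1. LGALS8 covers 23.1% of HEATR1 from the opposite strand and carried 664 to 1459 reads per library. NOP14-AS1, the partner of NOP14, carried 156 to 183 reads in shControl and 385 to 487 in shDDX5. Other partners carried few reads per library: NOXO1 over TBL3 0 to 4, NQO1-DT over NOB1 4 to 9 and SRR over TSR1 23 to 58. SNX33 over IMP3 carried 127 to 370 and RMND5B over NHP2 238 to 419. The strand setting of the counting was not given in the sources used here, so reads in the shared bases cannot be told apart. How far they entered the counts of these members was not tested. NPM1 is known to have many processed pseudogenes, which can divide its reads. The gene spans of 8 members (NOP56, NOP58, DKC1, WDR43, TSR1, GNL3, PPAN and NCL) hold 27 annotated snoRNAs. Some of these, such as SNORD86 in NOP56, share bases with deposited exons of the host. The snoRNAs themselves carried 0 to 29 counts per library and were too low to compare.

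The same pathway's genes outside the 58 also fell more often than they rose. Over all genes tested, 28.3% fell and 28.4% rose in the knockdown, and 31.9% fell and 32.2% rose with RX-5902. Of 28 other small-subunit factors, 16 fell and 5 rose in the knockdown (median -0.34) and 27 fell and 1 rose with RX-5902 (median -0.49). Of 41 other genes listed as large-subunit factors, 28 fell and 4 rose in the knockdown (median -0.48). With RX-5902, 37 of them fell and 2 rose (median -0.65). This list also held NAF1 and SHQ1, which act in box H/ACA snoRNP assembly, and the small-subunit list held RRP8, which modifies large-subunit RNA. Each of these genes fell in both experiments. Of 16 genes of RNA polymerase I transcription, which makes the precursor RNA, 12 fell and none rose in the knockdown (median -0.71), and 11 fell and 1 rose with RX-5902 (median -0.58). The smallest knockdown p-values belonged to TSR2 and PNO1 (log2 fold changes -1.24 and -1.26), PELP1 and LAS1L (4.00-fold and 2.11-fold lower), and RRN3 and TCOF1 (log2 fold changes -1.28 and -1.71) in these 3 lists. With RX-5902 these genes changed by -0.15, -1.31, -0.19, -0.85, -0.52 and -0.75, in the same order. The genes that rose in the knockdown were UTP6, RIOK2, RIOK3, BUD23, TSR3, SBDS, EIF6, ZNF622 and NOP53. Of these, RIOK3 and NOP53 also rose with RX-5902, and the others fell. Without shDDX5 replicate 1, the falls and rises in the knockdown numbered 20 and 6, 34 and 5, and 15 and 0. In that fit more genes were called throughout, as 35.7% of all genes tested fell and 35.7% rose. MYC stood at 403, 441 and 434 CPM in shControl and 204, 191 and 192 CPM in shDDX5 (log2 fold change -1.12, SE 0.08, edgeR adjusted p = 1.89e-05). With RX-5902 MYC stood at 646, 611 and 591 CPM in DMSO and 145, 152 and 158 CPM in RX-5902 (log2 fold change -2.02, SE 0.04, edgeR adjusted p = 8.73e-28). MYC RNA thus fell in both, further with RX-5902 (difference 0.88, SE 0.10, edgeR adjusted p = 4.41e-06), and its part in the members' fall was not tested.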

How the data were processed

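The deposited values are raw counts per gene, 1 column per library, which the authors had not normalized. Per the submitters' processing notes, the tools were featureCounts (Subread 2.0.3), STAR 2.7.9a, Trim Galore 0.6.7, Picard 2.8.0, R 4.4.2 and DESeq2 1.46.0, on GRCh38.p13. The annotation release and strand setting are not given in the sources used here. A gene whose line was wrapped was rejoined. Symbols matched 59984 genes by versioned identifier and 1819 without version, and 103 had none. The 3 libraries of a group are labelled biological replicates of the MOLM-14 line. The tests weighed each difference between groups against the spread between such libraries.

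Each experiment was fitted alone with edgeR 4.0.16 in R 4.3.3 (filterByExpr, TMM, quasi-likelihood F test, two-sided, Benjamini-Hochberg over all genes tested, called under 0.05). SE is the log2 fold change over the square root of F. All 58 members passed the filter, and the code was tested on simulated data. The difference between the changes was fitted over the 12 libraries. Same-numbered libraries did not deviate together (correlations -0.10 to 0.05). Alternatives included DESeq2 1.42.0, other scalings and filters, a length correction and leaving out each library. Members, roles, motifs and lists were chosen with earlier results of these data known. Levels per library are given for the 2 members of each role with the smallest knockdown p, the 6 with the smallest RX-5902 p, the 6 with the smallest difference p, members that rose in the knockdown, 3 paralog pairs, DDX5 and MYC. Gene coordinates span the deposited exons (GRCh38, counted from 1).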

Additional observations from a re-analysis of the deposited data

How the results depend on the processing

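Over the counts of called members and the medians, 120 of 136 alternative values stayed within the set limits and 16 moved; none changed direction. The count that rose in the knockdown was 1 in place of 2 when tested against a 1.2-fold change, with the length trend removed, and with that correction plus the replicate block, and 1 to 2 with each library left out. The knockdown median was -0.58 with upper-quartile scaling, -0.60 with a filter of 5 CPM in 3 libraries, -0.63 in a fit of all 12 libraries, and -0.65 to -0.68 with a library left out. The RX-5902 median was -0.79 with the length trend removed, with or without the replicate block, and in the 12-library fit. With RX-5902 replicate 3 left out, NOP2 counted as 1 rise (range 0 to 1). Members with a larger knockdown fall numbered 8 in place of 14 against a 1.2-fold change.

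Leaving out each library gave 41 to 52 knockdown falls and 57 RX-5902 falls throughout. Against a 1.2-fold change, 38 members fell in the knockdown in place of 45. With the replicate number as a block, 44 members fell and 2 rose in the knockdown, 57 fell with RX-5902, and the difference was positive for 21 and negative for 15; the numbers share no more than a name. Of 1182 values for named genes, 20 lost and 11 gained the call. In the knockdown the losses were of IMP4, NOP16, NOP10 and NOB1, and the gains of BYSL, NIP7, GNL3L and NPM1. With RX-5902, NPM1 was not called in the 12-library fit (-0.18, edgeR adjusted p = 0.158). Against a 1.2-fold change, NPM1 and NOB1 were not called with RX-5902 (edgeR adjusted p = 0.915 and 0.204). Without shControl replicate 1 the rise of NOP10 was 0.60 (edgeR adjusted p = 0.0635). Low counts limit NOP2, at 7 to 59 reads per library, and the snoRNAs.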
